A study of Mus musculus with 48 samples.

Results

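Sorted olfactory bulb astrocytes with the label CNO-control were compared, across all genes, with those labelled untreated. The comparison used 6 of the 48 RNA-seq libraries of the series, 3 CNO-control and 3 untreated, chosen by their labels. Both groups had the genotype Aldh1l1-GFP, in which regulatory DNA of the astrocyte gene Aldh1l1 drives a green fluorescent protein by which the cells were sorted. Neither group carries the Gq label, which the series gives to the olfactory bulb astrocyte groups Gq-CNO and Gq-Saline, of 3 libraries each and of the same genotype. The labels give no dose, time after CNO, age or sex. They do not say whether the libraries of a group came from separate animals, and the spread behind each p-value may therefore be technical.

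Astrocytes clear glutamate and potassium from around synapses, supply neurons with lactate and cholesterol, and in the olfactory bulb contact the glomeruli that receive the olfactory nerve. CNO, clozapine N-oxide, is a ligand of designer receptors that otherwise have no activating ligand in the animal, and the Gq-coupled one raises intracellular calcium when CNO binds. Part of an injected dose can be converted to clozapine, a drug that binds dopamine, serotonin, muscarinic, adrenergic and histamine receptors, so animals without a designer receptor are commonly given CNO as a control.

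The deposited values are gene reads divided by 1 size factor per library and are called normalised reads here. The CNO-control libraries held 6619479, 8577907 and 7151085 reads and the untreated libraries 2371002, 1724893 and 2964862. Depth and label cannot be told apart, and after thinning all 6 libraries to the same number of reads 1366 genes were called, against 1332 without thinning. The 19 astrocyte markers summed to 55010 to 62850 RPM in CNO-control libraries, against 65460 to 72550 in untreated libraries, where RPM scales each library's reads to the same total, and none of them was at 0 in any group. Rn45s, the precursor ribosomal RNA entry, took 8.9 to 11.5% of reads in CNO-control libraries, against 15.7 to 23% in untreated libraries. Ddx3y, a Y-linked gene, had no read in CNO-control libraries or in untreated libraries 1 and 2, and 632 normalised reads in untreated library 3. Untreated library 3 thus stands apart, and without it 1351 genes were called.

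Of 10940 tested genes, 1332 (12.2%) were called, which means a Benjamini-Hochberg adjusted p under 0.05 in limma on log2(normalised reads + 1). In CNO-control astrocytes 579 genes were higher (5.29% of those tested) and 753 were lower (6.88%), and the median log2 difference over all tested genes was 0.107. The groups did not overlap in 3596 genes (32.9%). Immediate early genes, nuclear RNAs and transcripts known for detained introns were among the higher genes, and genes of ribosomal proteins, oxidative phosphorylation and microglia among the lower ones. The number of calls fell to 753, 518 and 501 without CNO-control library 1, 2 or 3, of which 242, 140 and 136 were higher, and was 1351 to 1619 without an untreated library. Fitted without a variance trend, limma called 395 genes, and 53 of the 61 list counts above 0 in either direction moved by more than 1.5 times.

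**Figure D1:**
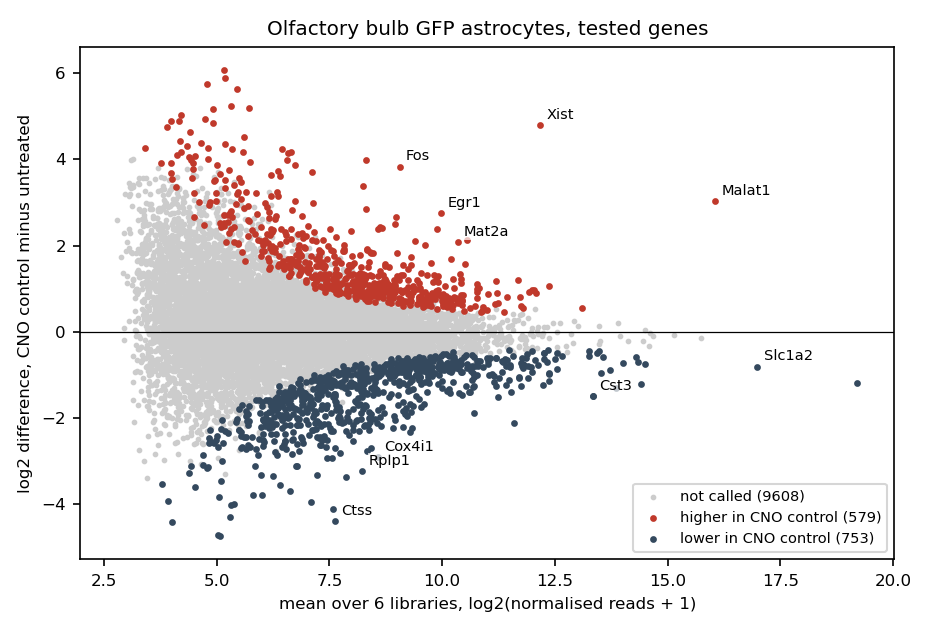
Mean level over the 6 libraries (horizontal axis, log2 of normalised reads + 1) against the log2 difference, CNO control minus untreated (vertical axis), for 10940 tested genes. Red points are the 579 genes called higher, dark points the 753 called lower and grey points the rest, and Fos, Malat1 and Xist lie far above 0 while Rplp1, Cox4i1 and Ctss lie far below it.

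Immediate early genes, which cells transcribe soon after a stimulus without new protein synthesis, were higher in CNO-control astrocytes. Of the list's 31 genes 23 were tested, and 14 were called higher and none lower, with a median log2 difference of 2.74. Fos (chr12:85473890-85477273, plus strand), a subunit of the transcription factor AP-1, had 693, 1214 and 1056 normalised reads in CNO-control libraries, against 33.6, 98.7 and 88.9 in untreated libraries. The groups were far apart, and the log2 difference was 3.83 ± 0.38 (SE, n = 3 libraries each, limma adjusted p = 0.000148). Egr1, a zinc finger factor that responds to growth factors and activity, had 1299, 1840.5 and 2108 normalised reads in CNO-control libraries, against 211, 417 and 182 in untreated libraries. Its log2 difference was 2.76 ± 0.29 (SE, limma adjusted p = 0.00018), again with no overlap.

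Other members of the Fos, Jun and Nr4a families shared the direction. Fosb, a partner subunit in AP-1, had 113, 128 and 179.9 normalised reads in CNO-control libraries, against 33.6, 42.0 and 11.7 in untreated libraries. Jun, with which Fos pairs in AP-1, had 558, 674 and 732 normalised reads in CNO-control libraries, against 205, 390.0 and 147 in untreated libraries. Junb, of the same family, had 52.7, 50.5 and 51.0 normalised reads in CNO-control libraries, against 0, 7.41 and 1.46 in untreated libraries. None of these 3 genes overlapped between the groups, and their log2 differences were 2.38, 1.51 and 4.26. The orphan nuclear receptors Nr4a1 and Nr4a3 were higher by 2.78 and 3.23 on the log2 scale. Socs3, an inhibitor of cytokine signalling, had a log2 difference of 5.17, with at most 2.91 normalised reads in any untreated library. Egr3, Klf4, Klf6, Btg2, Zfp36 and Cyr61 complete the called members, with log2 differences from 1.33 for Klf6 to 4.23 for Klf4. Dusp1, a phosphatase of MAP kinases, had 125, 258 and 209 normalised reads in CNO-control libraries, against 75.1, 207 and 10.2 in untreated libraries, so the groups overlapped (limma adjusted p = 0.172). Npas4, a neuronal activity factor, had 5.22, 2.95 and 15.7 normalised reads in CNO-control libraries, against 0, 2.47 and 2.91 in untreated libraries and was too low for the fit (exact permutation test, two-sided, p = 0.1, the smallest that 3 against 3 libraries allow). Arc, which acts at neuronal synapses, had overlapping groups and a log2 difference of 0.54 (limma adjusted p = 0.794). The list's count of higher calls was 7, 3 and 4 without CNO-control library 1, 2 or 3 and 11 to 17 without an untreated library, and it was 9 without a filter on low values. Leaving out 1 library ended the call of Nr4a3 (largest adjusted p = 0.0597, without CNO-control library 3) and of Socs3 (largest adjusted p = 0.0683, without CNO-control library 2) and of Klf4 (largest adjusted p = 0.0967, without CNO-control library 2). Fos and Egr1 kept their calls in all 6 of these fits.

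Promoters of the immediate early genes were searched for 3 motifs on both strands, in RefSeq's promoters on GRCm38.p6, from 250 bases before to 50 after the start. The cyclic AMP response element TGACGTCA was in 3 of the 24 members with an entry (12.5%) and in 2.03% of all 27025 genes. The AP-1 site TGACTCA was in 0 of 24 and in 5.95% of all genes. The CArG box of serum response factor was in 2 of 24 (8.33%) and in 1.81% of all genes. In the detained-intron list described next these motifs were in 3, 0 and 0 of 26. A further search, for TGACG, the core that lies within the cyclic AMP response element, was added after those results were seen. The core was in 16 of 24 immediate early genes (66.7%), 13 of 26 detained-intron genes (50%) and 23% of all genes. It contains a CG, and promoters of both lists were rich in CG, with medians of 25.5 and 27.5 CG dinucleotides, against 8 over all genes. The part of CG content in these shares was not tested. Single promoters were looked at for 11 called members, which do not include the called members Egr1, Egr3 and Cyr61. Among these 11, Btg2 held the cyclic AMP response element, Zfp36 the CArG box and 7 the core. The other of the 2 members with a CArG box is not among these 11. Motifs of the called members left out are not given singly here. Shown are the promoters of Btg2 (chr1:134079106-134079405, minus strand) and Zfp36 (chr7:28379179-28379478, minus strand) for their matches, of Fos (chr12:85473640-85473939, plus strand), the member with the smallest p, which held only the core, and of Jun (chr4:95052173-95052472, minus strand), which held no match. Capitals mark the matches, and in Btg2 the core overlaps the full element.
Btg2: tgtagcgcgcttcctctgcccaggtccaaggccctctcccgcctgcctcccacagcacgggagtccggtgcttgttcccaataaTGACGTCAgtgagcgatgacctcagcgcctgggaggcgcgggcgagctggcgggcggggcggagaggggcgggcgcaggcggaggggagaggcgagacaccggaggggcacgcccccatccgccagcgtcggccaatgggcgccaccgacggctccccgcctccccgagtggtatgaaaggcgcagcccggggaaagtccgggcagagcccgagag
Zfp36: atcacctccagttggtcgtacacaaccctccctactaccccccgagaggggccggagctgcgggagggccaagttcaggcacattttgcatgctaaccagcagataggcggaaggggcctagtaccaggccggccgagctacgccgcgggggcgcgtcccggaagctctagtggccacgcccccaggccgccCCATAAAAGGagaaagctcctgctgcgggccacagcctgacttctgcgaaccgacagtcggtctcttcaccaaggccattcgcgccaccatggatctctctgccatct
Fos: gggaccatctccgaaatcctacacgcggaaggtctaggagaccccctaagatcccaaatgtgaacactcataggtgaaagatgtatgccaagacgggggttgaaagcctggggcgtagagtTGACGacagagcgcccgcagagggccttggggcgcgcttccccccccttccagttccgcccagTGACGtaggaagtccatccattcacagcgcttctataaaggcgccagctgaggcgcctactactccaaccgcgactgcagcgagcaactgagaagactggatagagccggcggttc
Jun: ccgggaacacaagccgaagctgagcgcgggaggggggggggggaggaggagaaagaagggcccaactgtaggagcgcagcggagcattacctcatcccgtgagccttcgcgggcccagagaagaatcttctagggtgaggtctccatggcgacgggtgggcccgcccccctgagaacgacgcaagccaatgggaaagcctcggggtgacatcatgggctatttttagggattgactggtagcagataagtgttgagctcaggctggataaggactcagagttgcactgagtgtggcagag
The element of Btg2 began 166 bases before the start and the CArG box of Zfp36 58 bases before it. A match describes the letters of this window only.

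Several RNAs that stay in the nucleus were higher in CNO-control astrocytes and 1 was lower. Malat1 (chr19:5795690-5802672, minus strand), a long noncoding RNA of nuclear speckles, had 91029, 122850 and 148290 normalised reads in CNO-control libraries, against 15007, 18205 and 10990 in untreated libraries. It took 2.37 to 4.1% of all reads in CNO-control libraries, against 0.254 to 0.428% in untreated libraries, and its log2 difference was 3.04 ± 0.19 (SE, limma adjusted p = 1.25e-05). Neat1, the scaffold of paraspeckles, had 207, 303 and 404 normalised reads in CNO-control libraries, against 45.4, 61.7 and 61.2 in untreated libraries. Both groups of values were separate, and the log2 difference of Neat1 was 2.38. Of 11 tested nuclear long noncoding RNAs, 5 were called higher and 5 were not called, and edgeR called 4 higher. The higher ones include Kcnq1ot1, an antisense RNA of an imprinted locus (2.49), Snhg11 (1.67) and Ftx (3.97). 2900097C17Rik was called lower, at -0.81. Without CNO-control library 1 or 3, 3 members were called higher. Xist, which coats the inactive X chromosome, had 6677, 8598 and 10233 normalised reads in CNO-control libraries, against 613, 1573 and 27.7 in untreated libraries. Its lowest value came from the untreated library with Ddx3y reads, but untreated libraries 1 and 2 also lay below every CNO-control library. The counting is not stated to use strand, so reads of Xist and of Kcnq1ot1 cannot be told apart from those of the genes they overlap.

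Genes with transcripts known for detained introns, which can stay in the nucleus with an intron unspliced, were higher too. The values are gene reads, so unspliced and spliced transcripts cannot be told apart. Of 30 tested members, 20 were called higher and none lower, with a median log2 difference of 1.13. Mat2a (chr6:72432799-72439558, minus strand), the enzyme that makes the methyl donor S-adenosylmethionine, had 1980, 2158 and 2147 normalised reads in CNO-control libraries, against 456, 464 and 578 in untreated libraries. The CNO-control values lay close together and far above the untreated ones, at a log2 difference of 2.07 ± 0.16 (SE, limma adjusted p = 4.13e-05). Pnisr, an arginine- and serine-rich protein, had 883, 1102 and 1287 normalised reads in CNO-control libraries, against 261, 276 and 213 in untreated libraries. Clk1, a kinase of splicing factors, had 470.1, 836 and 661 normalised reads in CNO-control libraries, against 247, 153 and 45.2 in untreated libraries. Ogt, which adds O-GlcNAc to proteins, Son, a nuclear speckle protein, and Luc7l3, a splicing factor, had log2 differences of 1.54, 1.12 and 1.45. Of 23 core spliceosome genes, Sf3b1 and Prpf6 were called higher and none lower, 1 was called without CNO-control library 1, 2 or 3 or with the replicate block, and the median was 0.10. The detained-intron count was 14, 11 and 10 without CNO-control library 1, 2 or 3 and 17 to 19 without an untreated library. A fit without 1 of the libraries ended the call of Prpf6 (largest adjusted p = 0.156, without CNO-control library 3).

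**Figure D2:**
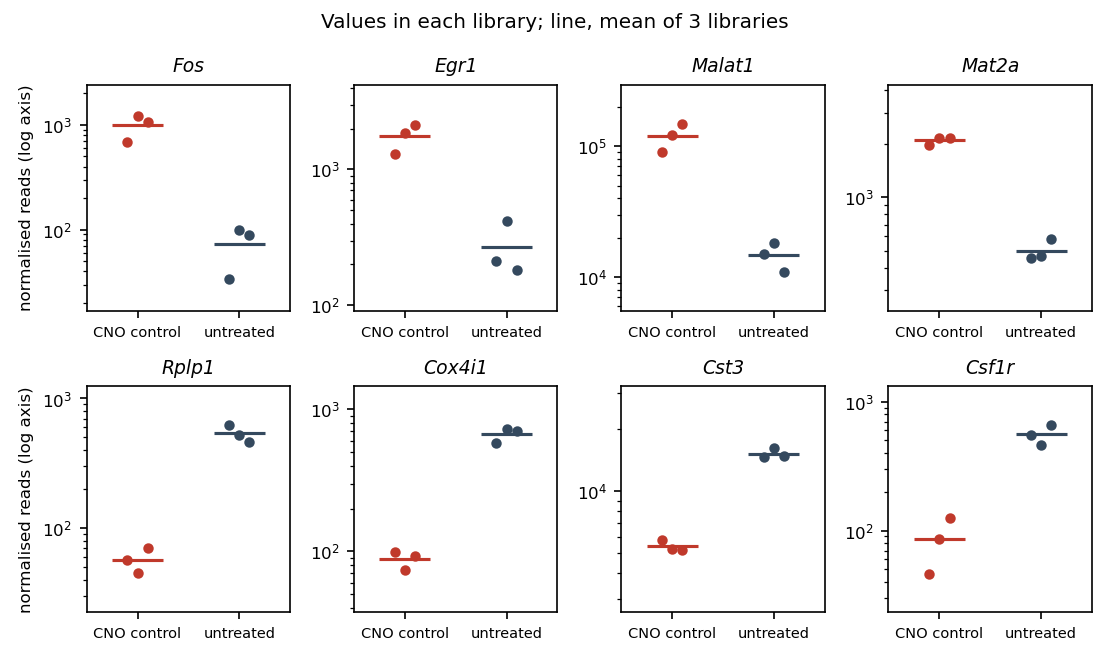
Normalised reads (log axes) of 8 genes in each CNO-control library (red, left of each panel) and each untreated library (dark, right), with the mean of 3 libraries as a line. CNO-control libraries lay above untreated libraries for Fos, Egr1, Malat1 and Mat2a and below them for Rplp1, Cox4i1, Cst3 and Csf1r, with no overlap in any panel.

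Genes of protein synthesis and respiration were lower in CNO-control astrocytes. Of 75 tested cytosolic ribosomal protein genes, 73 were called lower and none higher, with a median log2 difference of -1.998. Rplp1 (chr9:61913284-61914542, minus strand), a protein of the stalk of the large ribosomal subunit, had 56.8, 44.6 and 69.7 normalised reads in CNO-control libraries, against 624, 523 and 465 in untreated libraries. Every CNO-control value lay far below every untreated one (log2 difference -3.23 ± 0.28 SE, limma adjusted p = 7.53e-05). Rpl9 and Rpl13, of the large subunit, had log2 differences of -2.71 and -2.33. Ribosomal protein genes have many processed pseudogenes, so how the counting split their reads is uncertain. The list summed to 2670 to 2818 RPM in CNO-control libraries, against 6860 to 8279 in untreated libraries.

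Subunits of oxidative phosphorylation encoded in the nucleus shared this direction, with 56 of 75 called lower, none higher and a median of -1.69. Cox4i1, a subunit of cytochrome c oxidase, had 99.1, 74.1 and 93.0 normalised reads in CNO-control libraries, against 583, 731 and 704 in untreated libraries. Atp5e, a subunit of ATP synthase, had 30.1, 21.9 and 26.8 normalised reads in CNO-control libraries, against 265, 289 and 258 in untreated libraries. Neither overlapped, and the log2 differences were -2.91 and -3.33. Mitochondrially encoded genes are not analysed here. Of 31 proteasome subunits 7 were lower and none higher, with Psmb6, a catalytic subunit, at -2.54, and 4, 3 and 3 were lower without CNO-control library 1, 2 or 3. Leaving out 1 library gave 67 to 74 ribosomal protein calls, and 45, 40 and 38 oxidative phosphorylation calls without CNO-control library 1, 2 or 3.

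Short transcripts were called lower more often than long ones. Length was taken as the longest annotated transcript, known for 96.4% of tested genes. Under 1000 bases, 115 of 317 genes (36.3%) were called lower and 3 higher, with a median log2 difference of -1.295. At 8000 bases and over, 36 of 790 (4.56%) were called lower and 83 (10.5%) higher, with a median of 0.19. Ribosomal protein genes had a median length of 1059 bases and oxidative phosphorylation genes 1231.5, against 3719 over all tested genes. Under 1000 bases, 60 of 65 members of the ribosomal protein and oxidative phosphorylation lists were called lower (median -2.13), against 55 of 252 other genes (21.8%, median -1.01). From 1000 to under 2000 bases, 45 of 54 members were called lower (median -1.60), against 134 of 1274 other genes (10.5%, median -0.33). The part of transcript length in the list results was not tested.

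**Figure D3:**
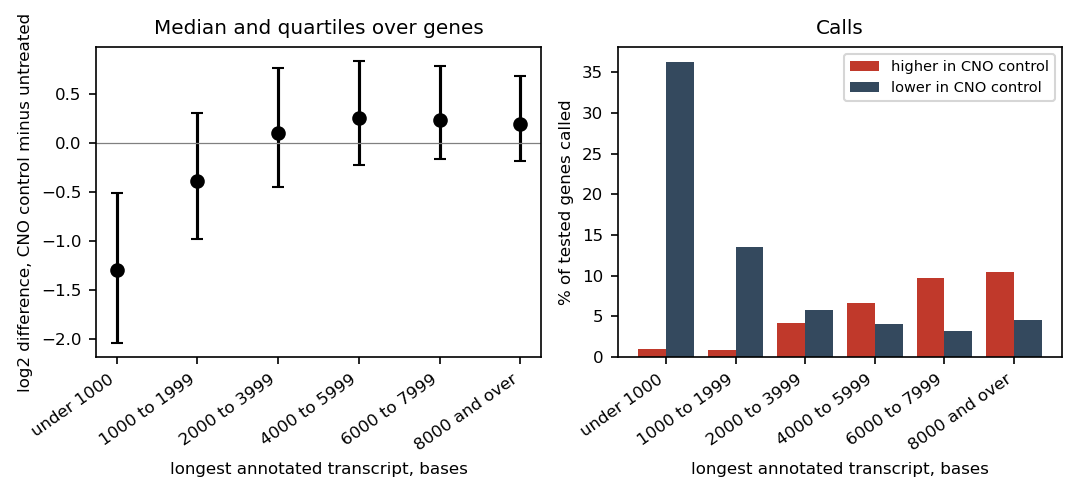
Left, median (points) and quartiles (bars) of the log2 difference, CNO control minus untreated, in classes of the longest annotated transcript in bases. Right, percentage of tested genes called higher (red) and lower (dark) in CNO-control astrocytes, with 36.3% lower under 1000 bases and 4.56% at 8000 bases and over.

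Metabolic genes of astrocytes were lower in part. Of 28 glycolysis, lactate and glycogen genes, 12 were called lower and none higher (median -0.55). Ldhb, a lactate dehydrogenase subunit, had 1111, 945 and 911 normalised reads in CNO-control libraries, against 2517, 2209 and 2316 in untreated libraries. Gapdh, an enzyme of glycolysis, had 1253, 1139 and 1115 normalised reads in CNO-control libraries, against 2193, 2189.6 and 2659.7 in untreated libraries. Of 30 cholesterol synthesis and lipoprotein genes, 10 were lower and 1 higher (median -0.49). Apoe, the main apolipoprotein that astrocytes secrete, had 6039, 5373 and 4930 normalised reads in CNO-control libraries, against 17907, 14513 and 13782 in untreated libraries. The values fell into separate groups. Scd2, a fatty acid desaturase, Hmgcs1, an early enzyme of cholesterol synthesis, and Fdps, a farnesyl diphosphate synthase, had log2 differences of -0.96, -1.26 and -2.38. Abca1, which exports cholesterol, was the higher member, with 2956, 3107 and 3279 normalised reads in CNO-control libraries, against 1636, 1706 and 1652 in untreated libraries. Of 24 actin and tubulin genes 8 were lower and 2 higher, with Tmsb4x, an actin monomer-binding peptide, at -2.23. Without CNO-control library 1, 2 or 3, the lower calls numbered 10, 7 and 6 for glycolysis and 6, 5 and 3 for actin and tubulin.

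Genes by which astrocytes handle transmitters moved in both directions. Of 16 glutamate uptake and glutamine cycle genes, 3 were called higher and 3 lower, beside 5.29% and 6.88% over all tested genes. Only 1 was called higher without CNO-control library 2 or 3 or untreated library 3. The same held with TMM factors, a pseudocount of 0.1, no filter or no variance trend. Slc1a2, the main glutamate transporter of astrocytes, had 112330, 84565 and 88147 normalised reads in CNO-control libraries, against 164510, 163930 and 166690 in untreated libraries. The untreated values lay close together and above all CNO-control values (log2 difference -0.81 ± 0.11 SE, limma adjusted p = 0.000868). Glul, glutamine synthetase, and Glud1, glutamate dehydrogenase, had log2 differences of -0.74 and -0.44, though Glud1 reached 0.01491 under quantile normalization and was not called there. Slc1a3, the other main astrocyte glutamate transporter, had 21616, 20488 and 19828 normalised reads in CNO-control libraries, against 23179, 21479 and 27605 in untreated libraries (limma adjusted p = 0.235). Slc38a2, a neutral amino acid transporter, had 474, 523 and 617 normalised reads in CNO-control libraries, against 154, 168 and 129.6 in untreated libraries. It was higher without overlap, at 1.83, and the amino acid transporters Slc1a4 and Slc1a5 had 0.68 and 2.09. Abat, which breaks down GABA, was called among 9 GABA genes, at -1.06. This 1 call of 9 is near the 12.2% called over all tested genes.

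Of 22 potassium, water and gap junction genes, 3 were called higher and 4 lower, with 2 lower without CNO-control library 2 or 3. Kcnj10, the inward rectifier that buffers potassium, Kcnk2, a leak channel, Atp1b3, a sodium pump subunit, and Mlc1, a membrane protein of astrocyte endfeet, were lower, at -0.73, -0.79, -0.83 and -1.11. Atp1b1, another sodium pump subunit, the connexin gene Gjb6 and the chloride cotransporter gene Slc12a2 were higher, at 1.31, 0.85 and 1.08. Aqp4, the water channel of endfeet, had 17386, 15891 and 15463 normalised reads in CNO-control libraries, against 15190, 13562 and 13567 in untreated libraries. The difference of 0.20 did not pass (limma adjusted p = 0.221). Among 26 genes that act on synapses, the engulfment receptors Mertk (1.19) and Megf10 (0.57) and the link protein Hapln1 (0.98) were higher, and the matrix genes Sparc (-0.72) and Ncan (-0.70) lower. Among 33 transcription factors, Lhx2, Nfix and Nfia were lower, at -0.94, -0.95 and -0.51, and Nr2f2 higher, at 1.32. These 4 calls of 33 are near the 12.2% called over all tested genes. Sox9, which maintains astrocyte identity, had 2117, 1784 and 1822 normalised reads in CNO-control libraries, against 1685, 1123 and 1706 in untreated libraries (limma adjusted p = 0.201). Omission of single libraries ended the call of Nfia (largest adjusted p = 0.135, without CNO-control library 3) and of Nr2f2 (largest adjusted p = 0.125, without CNO-control library 3).

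Of the 19 astrocyte markers, 7 were called lower and 1 higher, with a median of -0.16. S100b, a calcium-binding protein, had 777, 738 and 627 normalised reads in CNO-control libraries, against 2438, 2594 and 2891 in untreated libraries. Gfap, the intermediate filament protein of astrocytes, had 879, 513 and 487 normalised reads in CNO-control libraries, against 1717, 1599.6 and 1399.8 in untreated libraries. Neither overlapped, and the log2 differences were -1.89 and -1.38. Aldh1l1, whose promoter drives the sorted label, had 429.5, 276 and 364 normalised reads in CNO-control libraries, against 587, 696 and 470.5 in untreated libraries (log2 difference -0.72, limma adjusted p = 0.0603). In bulk libraries, fewer cells of a type and less RNA per cell cannot be told apart.

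Stress and immune genes were called in both directions. Among 16 reactive astrocyte genes, the protease inhibitor gene Serpina3n (1.93), the sphingolipid receptor gene S1pr3 (2.28) and the cytokine receptor gene Osmr (1.24) were higher, and Gfap lower, beside 5.29% higher and 6.88% lower over all tested genes. Among 9 inflammatory genes, Nfkbiz, a regulator of NF-kappaB, and Vcam1, an adhesion molecule, were higher, at 3.22 and 0.96, and the chemokine gene Cxcl12 lower, at -2.07. Without CNO-control library 1, 2 or 3, the higher calls numbered 1, 0 and 0 for the reactive list and 0 in each case for the inflammatory list. Of 26 interferon response genes, 1 was called, Cmpk2, at -1.26. Of 11 MHC class I genes, B2m and H2-D1 were lower, at -1.50 and -2.23. The MHC class I list summed to 506 to 529 RPM in CNO-control libraries, against 751 to 1505 in untreated libraries, with the highest value in untreated library 1. Leaving out 1 library ended the calls of Serpina3n, S1pr3, Osmr, Nfkbiz, Vcam1 and Cxcl12, with the largest adjusted p for Osmr (0.272, without CNO-control library 2).

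Hormone and clock genes were called in part. Of 17 glucocorticoid-responsive genes, Angptl4, Mertk, Errfi1 and Klf9 were higher, at 4.14, 1.19, 1.16 and 0.65, and the metallothionein gene Mt1 lower, at -0.90. The list summed to 1581 to 1713 RPM in CNO-control libraries, against 1075 to 1282 in untreated libraries. It summed to 1784 to 1974 RPM in Gq-Saline and 1765 to 2085 in Gq-CNO libraries, so the untreated libraries were the lowest. In the fits without CNO-control library 1, 2 or 3, 1 list member was called higher. Fkbp5, a sensitive glucocorticoid target, had 37.7, 11.4 and 15.7 normalised reads in CNO-control libraries, against 3.95, 0 and 0 in untreated libraries and was not called (limma adjusted p = 0.0716). In reads scaled jointly over 12 libraries, Fkbp5 averaged 29.7 in CNO-control, 1.82 in untreated, 52.0 in Gq-CNO and 29.2 in Gq-Saline libraries. The clock genes Per2 and Per3 were higher, at 2.21 and 1.26, and the other 17 of 19 were not called. Hspa5, a chaperone of the endoplasmic reticulum, Ppp1r15a, a phosphatase subunit of the stress response, and Pdia4, a disulfide isomerase, were higher among 20 tested unfolded protein and ATF4 response genes. Of 19 heat shock and chaperone genes, Dnajb4 was higher (1.13) and Cryab and Hspe1 lower (-1.42 and -2.12). Beside these list counts, 5.29% of all tested genes were called higher and 6.88% lower. A fit without 1 of the libraries ended the calls of Angptl4, Errfi1, Klf9, Per2, Per3, Hspa5, Ppp1r15a, Pdia4 and Dnajb4, with the largest adjusted p for Errfi1 (0.231, without CNO-control library 3).

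**Figure D4:**
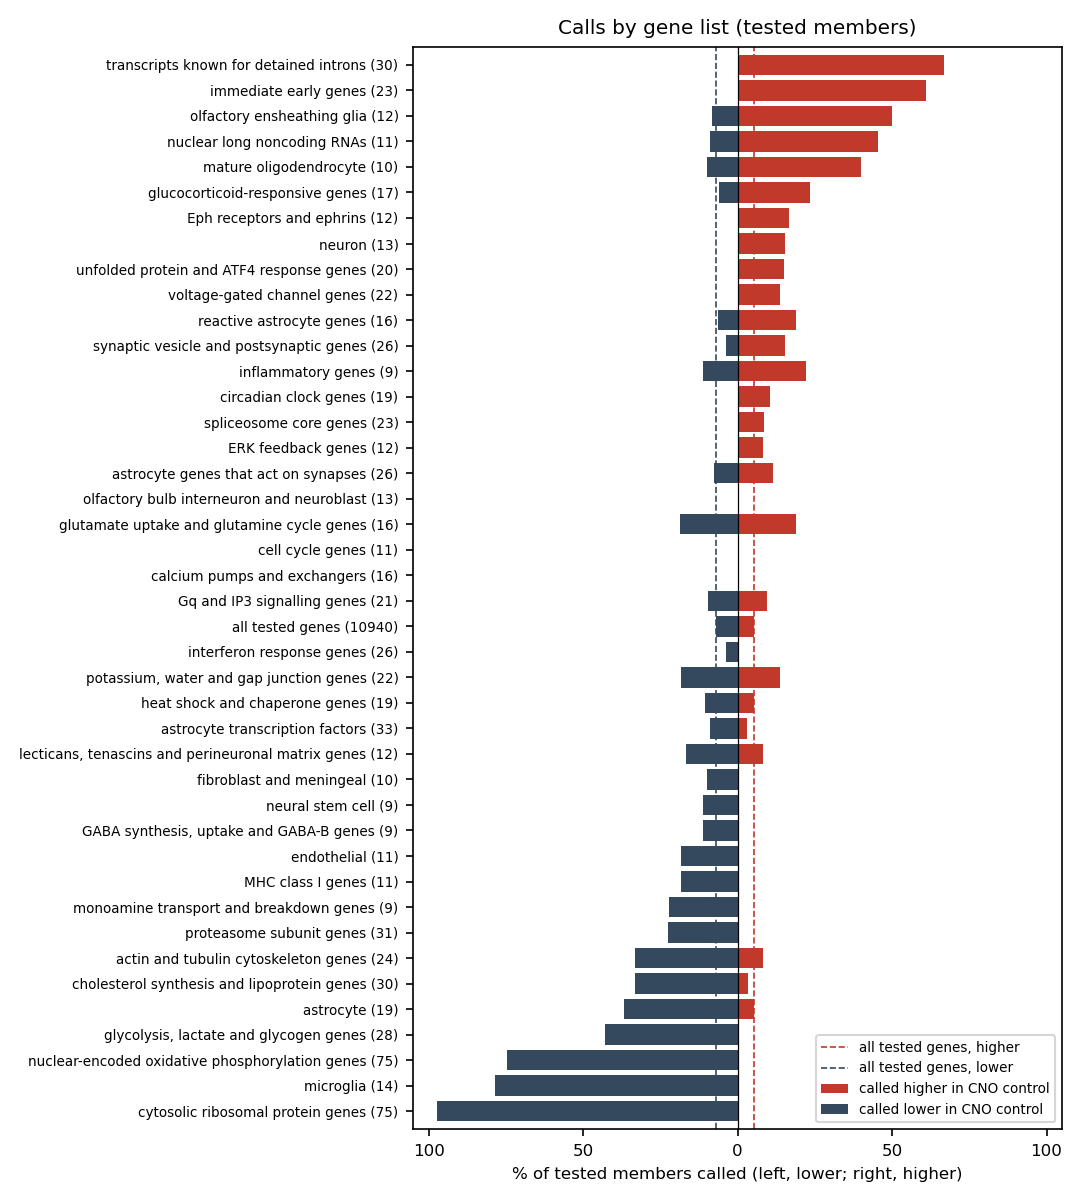
Percentage of tested members of each gene list called higher (red, right) or lower (dark, left) in CNO-control astrocytes, for lists with at least 9 tested members (number in brackets). Dashed lines mark the shares over all tested genes, 5.29% higher and 6.88% lower, and detained-intron and immediate early genes reach farthest right while ribosomal protein genes reach farthest left.

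Markers of microglia, the macrophages of brain tissue, were lower in CNO-control libraries. Of 14 tested markers, 11 were called lower and none higher, with a median log2 difference of -3.24. Csf1r, the receptor on which microglia depend, had 46.4, 86.7 and 125 normalised reads in CNO-control libraries, against 547, 462 and 661 in untreated libraries. Ctss, a lysosomal protease, had 6.96, 33.7 and 18.7 normalised reads in CNO-control libraries, against 322, 393 and 399 in untreated libraries. The groups were separate in both genes, with log2 differences of -2.77 and -4.40. The 14 markers summed to 168 to 255 RPM in CNO-control libraries, against 753 to 866 in untreated libraries, and none was at 0 in all libraries. Border macrophage markers were lower in 4 of 4 tested, with the mannose receptor gene Mrc1 at 6.96, 51.8 and 17.2 normalised reads in CNO-control libraries, against 466, 222 and 369 in untreated libraries. Without CNO-control library 1, 2 or 3, 2 border macrophage markers were called. The part of these cells in the lower MHC class I genes was not tested.

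Olfactory ensheathing glia, which wrap olfactory nerve axons, and other cell types gave mixed results. Of 12 tested ensheathing glia markers, 6 were called higher and 1 lower. Frzb, a secreted Wnt antagonist, had 556, 1354 and 953 normalised reads in CNO-control libraries, against 287, 323 and 307 in untreated libraries. The groups did not overlap, and the log2 difference was 1.55. Npy, a neuropeptide of these glia, had 276, 564 and 300.1 normalised reads in CNO-control libraries, against 433, 276 and 370.0 in untreated libraries, with overlap. The markers summed to 2432 to 4252 RPM in CNO-control libraries, against 1944 to 2208 in untreated libraries. Gq-Saline and Gq-CNO libraries lay within the CNO-control range, at 2857 to 4098 and 3137 to 3318 RPM. In the fits without CNO-control library 2 or 3, 2 markers were called higher. Of 10 mature oligodendrocyte markers, Ugt8a, Mal and Aspa were among the higher ones and Mbp, myelin basic protein, lower, at -1.16, and 1 marker was called higher without CNO-control library 1, 2 or 3.

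Among 5 tested markers of mitral and tufted cells, the output neurons of the bulb, 3 were higher. Slc17a6, a vesicular glutamate transporter, had 55.1, 129 and 26.8 normalised reads in CNO-control libraries, against 0, 0 and 0 in untreated libraries. It was at least 47.8-fold higher in RPM than the limit that 3 reads over the whole untreated group allow. Eomes and Cdhr1 were the other higher markers, and 1, 0 and 2 markers were called without CNO-control library 1, 2 or 3. The mitral and tufted list summed to 58.2 to 159 RPM in CNO-control and 22.9 to 51.0 in untreated libraries. Gq-CNO and Gq-Saline libraries had 77.3 to 93.6 and 65.2 to 77.6 RPM. None of 13 interneuron and neuroblast markers was called in limma or in edgeR. Of 11 endothelial markers, Tek and Slco1a4 were lower, but 1, 1 and 0 markers were without CNO-control library 1, 2 or 3, and 4 and 1 without untreated library 1 or 2. The endothelial list summed to 74.5 to 110.2 RPM in CNO-control libraries, against 112 to 423 in untreated libraries. Neutrophil markers had no read in the 6 libraries, and ependymal, red blood cell, T and NK cell markers were too low to test. The part of other cell types in the neuronal and glial values was not tested.

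Receptor genes whose products clozapine binds gave no call. Of 27 receptors that clozapine binds, 4 reached the level for a test and none was called in limma or in edgeR. The 4 differences lay above 0, with a median of 0.95. The list summed to 82.2 to 86.8 RPM in CNO-control libraries, against 33.7 to 47.2 in untreated libraries, without overlap. Gq-Saline libraries, at 63.9 to 84.0 RPM, reached into the CNO-control range, and Gq-CNO libraries had 41.0 to 74.4. Adra2a, an adrenergic receptor, had 95.1, 77.0 and 69.2 normalised reads in CNO-control libraries, against 37.5, 54.3 and 33.5 in untreated libraries (log2 difference 0.95, limma adjusted p = 0.186). The dopamine receptor genes Drd4 and Drd5 had no read in any of the 6 libraries, which allows up to 0.134 RPM in the CNO-control group and 0.425 RPM in the untreated group. Of 21 tested Gq and IP3 signalling genes, Rgs2, which shortens Gq signals, and the phospholipase gene Plcb4 were higher, at 1.91 and 1.31, and Calm3, a calmodulin gene, was among the lower ones, at -0.98. None of 16 calcium pump and exchanger genes was called in limma or in edgeR. Errfi1, an inhibitor of the EGF receptor, was called among 12 ERK feedback genes, and Spry2, of the same list, overlapped between the groups. Beside these counts, 12.2% of all tested genes were called, 5.29% higher and 6.88% lower, and no list was tested against those shares. Omission of single libraries ended the call of Rgs2 (largest adjusted p = 0.0616, without CNO-control library 2) and of Plcb4 (largest adjusted p = 0.139, without CNO-control library 3) and of Calm3 (largest adjusted p = 0.0622, without CNO-control library 3).

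Slc22a3, the organic cation and monoamine transporter named in the series title, was at the edge of detection. It had 4.06, 0 and 0 normalised reads in CNO-control libraries, against 0, 0 and 0 in untreated libraries (exact permutation test, two-sided, p = 1). Slc22a2, a related transporter, had 19.7, 3.79 and 0.505 normalised reads in CNO-control libraries, against 0, 0 and 0 in untreated libraries (exact permutation test, two-sided, p = 0.1). The monoamine oxidase genes Maoa and Maob overlapped between the groups, with log2 differences of -0.11 and -0.27. Of 9 tested monoamine genes, the aldehyde dehydrogenase genes Aldh7a1 and Aldh2 were called, both lower, beside 6.88% lower over all tested genes. Neither was called without CNO-control library 1, 2 or 3 (largest limma adjusted p = 0.155, for Aldh2 without library 3).

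Among the largest differences were those of Hif3a, a hypoxia-inducible factor subunit, and Angptl4, a secreted inhibitor of lipoprotein lipase. Hif3a (chr7:17031507-17062427, minus strand) had 771, 351 and 664 normalised reads in CNO-control libraries, against 47.4, 39.5 and 21.8 in untreated libraries. Angptl4 had 139, 209 and 151 normalised reads in CNO-control libraries, against 0, 12.3 and 59.7 in untreated libraries. Neither overlapped, and the log2 differences were 3.99 and 4.14. Xist, Klf4, Gdpd4, Cdhr1, Shisa6, Fos, Cebpd and Fstl5 complete the 10 largest higher genes that passed the naming rule. The 10 largest lower ones were mainly genes of macrophages, namely Ctss, Mrc1, C1qb, Siglech, C1qc, Itgam, Fcrls and Nckap1l, with Vamp8 and Ebf1. The most abundant called genes included Malat1, Macf1, Xist and Ncam1 among the higher ones and Rn45s, Slc1a2, Glul, Gpm6b and Ncan among the lower ones. Cst3, the secreted protease inhibitor cystatin C, had 5804, 5264 and 5160.4 normalised reads in CNO-control libraries, against 14607, 16228 and 14883 in untreated libraries (log2 difference -1.49). Leaving out 1 library ended the calls of Angptl4, Klf4, Gdpd4, Cdhr1, Shisa6, Cebpd, Fstl5, Vamp8 and Macf1, with the largest adjusted p for Fstl5 (0.206, without CNO-control library 1). DESeq2 did not call Klf4, Gdpd4, Cdhr1 or Angptl4.

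The difference between CNO-control and untreated astrocytes was set against that between Gq-CNO and Gq-Saline astrocytes of the same region, which share no library with it. Over the 12 libraries, scaled together, the differences themselves differed in 667 of 12554 tested genes (5.31%, limma), with the CNO-control one above in 226 (1.8%) and below in 441 (3.51%). Of the 1332 genes called between CNO-control and untreated astrocytes, 608 had a called difference of effects. Both tests use the same CNO-control and untreated libraries, so this overlap is not independent support. Malat1 averaged 166650 in CNO-control and 20411 in untreated libraries, and 7991 in Gq-CNO and 10370 in Gq-Saline libraries, in jointly scaled reads, a difference of effects of 3.43 on the log2 scale. Hif3a averaged 820.4 in CNO-control and 50.2 in untreated libraries, and 96.2 in Gq-CNO and 196 in Gq-Saline libraries, a difference of 5.10. Mat2a and Akap9, an anchor of protein kinase A, had differences of 2.01 and 1.82. Cox4i1, Rplp1, S100b, Cst3 and Dbi, an acyl-CoA-binding protein, lay below, at -3.18, -3.12, -1.91, -1.45 and -2.28. Of 75 ribosomal protein genes, 71 were called below, and of 32 detained-intron genes, 9 were called above. Fos, at 3.84, and Egr1, at 2.51, were the called members of 28 tested immediate early genes. Without CNO-control library 2 or 3, 427 and 393 differences were called. The groups also differed in sex-linked genes. Ddx3y had 0 jointly scaled reads in every CNO-control library and 632, 589 and 689 in Gq-CNO libraries. It had 0, 0 and 881 in untreated and 0, 527 and 426 in Gq-Saline libraries. Xist averaged 11740 in CNO-control, 1020 in untreated, 0 in Gq-CNO and 159 in Gq-Saline libraries. The part of this in the differences of effects was not tested.

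Summed levels set CNO-control libraries apart from the other 9 for several lists. Immediate early genes summed to 1080 to 1658 RPM in CNO-control, 163 to 398 in untreated, 214 to 280.4 in Gq-CNO and 141 to 307 in Gq-Saline libraries. Detained-intron transcripts summed to 6065 to 7848 RPM in CNO-control, 2814 to 3194 in untreated, 3146 to 3422 in Gq-CNO and 2751 to 3270 in Gq-Saline libraries. Ribosomal protein genes were lowest in CNO-control libraries, at 2670 to 2818 RPM, with 6860 to 8279 in untreated, 9622 to 11820 in Gq-CNO and 9385 to 11430 in Gq-Saline libraries. Microglia markers set the untreated libraries apart instead, with 168 to 255 RPM in CNO-control, 753 to 866 in untreated, 140.0 to 234 in Gq-CNO and 129 to 209.7 in Gq-Saline libraries. The lists of ensheathing glia, mitral and tufted cells and glucocorticoid-responsive genes were lowest in untreated libraries.

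**Figure D5:**
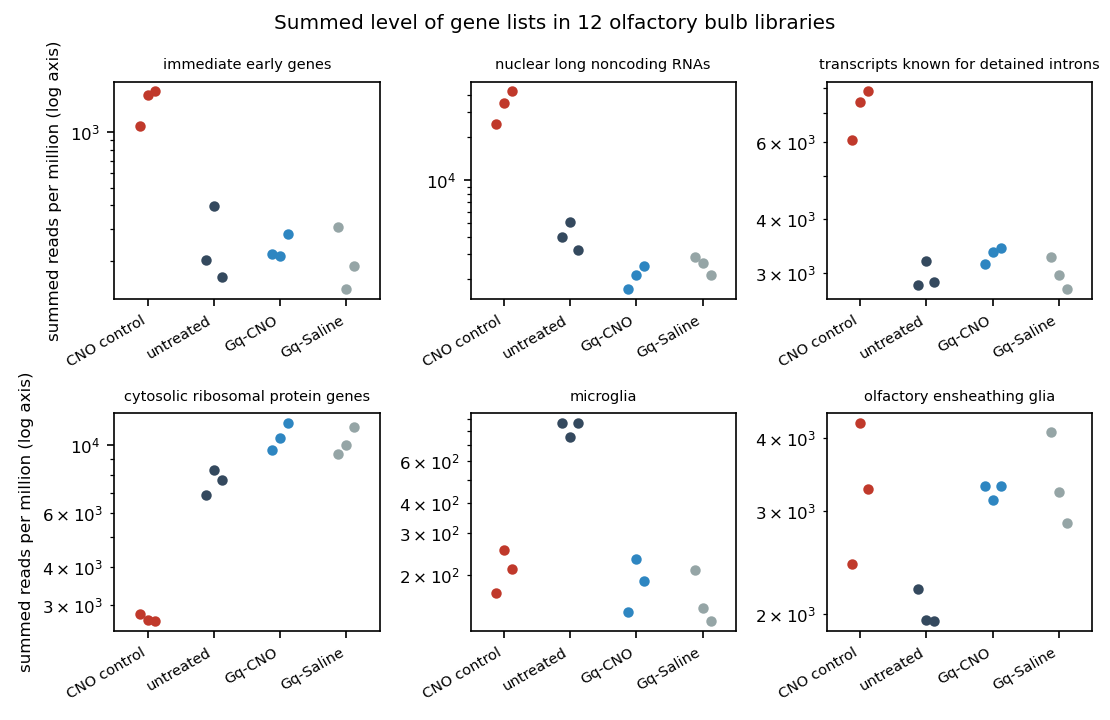
Summed RPM (log axes) of 6 gene lists in each of 12 olfactory bulb astrocyte libraries, with CNO control and untreated left of Gq-CNO and Gq-Saline. CNO-control libraries stand apart for the first 4 lists and untreated libraries for microglia markers, and untreated libraries are the lowest for ensheathing glia markers.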

How the data were processed

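RNA was measured in GFP-sorted olfactory bulb astrocytes, 3 libraries a group. Per the labels' protocols, libraries were made with the NuGEN Trio system from 10 ng of total RNA and sequenced in pairs. Per the submitters' processing notes, the authors used FastQC 0.11.7, MultiQC 1.11, STAR 2.5.0a and DESeq2 1.30.1 with mm10. The counting tool and its strand setting are not given in the sources used here. The deposited signal values are gene reads divided by 1 size factor per library: divided by the library's smallest step, 100% of them came out whole within 0.05, in all 12 libraries used. On those recovered counts edgeR called 1363 genes. The planned test was limma on normalised values, with edgeR in its place only if the values were raw counts, so limma was used. Of 24421 entries, 27 have names turned into dates. Limits from a count of 0 cover counting error only.

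limma 3.58.1 (R 4.3.3) was fitted to log2(value + 1) with a variance trend, for genes that reached 10 in 3 or more libraries. The scale affects differences of low genes in both directions. Slc17a6 and Cdon, without reads in untreated libraries, had 5.87 and 6.07 in limma, against 9.49 and 9.48 in edgeR. Klf4 and Angptl4, at 0 in 1 untreated library, had 4.23 and 4.14 in limma, against 3.01 and 2.69 in edgeR. Differences of effects were fitted over 12 libraries with joint size factors, from recovered reads. edgeR 4.0.16 and DESeq2 1.42.0 were alternatives, beside other filters, pseudocounts, normalizations, left-out libraries and thinned reads. The fits between CNO-control and untreated libraries were tested on simulated data, but the fit of differences of effects was not.

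The comparison and the 52 gene lists (1104 of 1136 entries matched) were chosen with earlier results of these data known, and no list was tested as a set. The naming rule takes 15 fixed genes, the 10 largest called differences each way without overlap among genes of at least median level, the 5 most abundant called genes each way, up to 4 members per list by smallest p, and 5 differences of effects each way, without gene models. Other genes are named to complete a count, or were chosen after their values were seen. Lengths and positions are from GENCODE vM21 (GRCm38, the mm10 build), promoters from RefSeq (GRCm38.p6). Some results that the naming rule covers are not reported here.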

Additional observations from a re-analysis of the deposited data

Results flagged for a closer look

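The effect of the CNO-control label differed from that of the Gq-CNO label in 667 genes, by limma's test of the difference over 12 libraries (2376 genes at an unadjusted p under 0.05). On the log2 scale the differences of effects were 3.43 for Malat1, 2.01 for Mat2a, 5.10 for Hif3a, 8.82 for Cdon and 1.82 for Akap9, and -3.18 for Cox4i1, -2.28 for Dbi, -3.12 for Rplp1, -1.91 for S100b and -1.45 for Cst3. Cdon, a cell surface receptor of the immunoglobulin family, had no read in untreated libraries, so its fitted value is not a bound. In CNO-control libraries it was at least 45.8-fold higher in RPM, against a limit of 3 reads over the untreated group. In jointly scaled reads Cdon averaged 96.1 in CNO-control, 0 in untreated, 20.6 in Gq-CNO and 95.7 in Gq-Saline libraries. Its CNO-control values thus overlapped those of Gq-Saline libraries, and the untreated libraries were the lowest. The cause of these differences was not tested.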

How the results depend on the processing

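Of the alternatives that kept all libraries, 2 moved a count over all genes by more than 1.5 times. Without a variance trend, limma called 395 genes (136 higher, 259 lower). DESeq2 called 1145 lower and 837 higher genes, and 1093 differences of effects. Calls between CNO-control and untreated astrocytes otherwise ranged between 1178 without a filter on low values and 1523 with a pseudocount of 10. With 1 library left out, 501 to 1619 genes were called, 136 to 796 of them higher and 365 to 823 lower, and 393 to 716 differences of effects. Of 61 list counts above 0, 53 moved by more than 1.5 times without the trend, 24, 33 and 33 without CNO-control library 1, 2 or 3, 7 to 14 without an untreated library, 11 with DESeq2 and 11 with limma-voom, 10 without the filter, and 0 to 8 under the other settings. Among them, higher immediate early genes numbered 9 without the filter and 5 without the trend, higher detained-intron genes 6 without the trend, and higher potassium, water and gap junction genes 8 under quantile normalization. Every call shared with another setting kept its direction. The higher share of calls was 43.5%, but 32.1, 27 and 27.1% without CNO-control library 1, 2 or 3, 34.4% without the trend and 35.2% with limma-voom. Quantile normalization turned Rn45s to 0 and Glud1 to 0.01491, neither called. Of 203 named genes, 86 lost their call without the trend, and 35, 50 and 50 without CNO-control library 1, 2 or 3. The causes were not tested. Same-numbered libraries did not deviate together (correlations 0.022, -0.025 and -0.028), and the main fit did not pair them. Such correlations cannot show whether the libraries were collected or processed in pairs. With the replicate block, 1213 genes (543 higher, 670 lower) and 600 differences of effects were called. Depth limits the low genes, such as the receptors that clozapine binds, most in the untreated libraries.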

Other observations

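Gene families sharing a symbol stem were counted after the values had been seen, as a description. Of 299 tested genes whose symbols begin with Zfp, mostly zinc finger factors, 30 (10%) were called higher in CNO-control astrocytes and 2 (0.669%) lower, with a median log2 difference of 0.77, beside 5.29% higher and 6.88% lower over all tested genes. Of 31 Rbm genes, RNA-binding motif proteins, 5 were higher and none lower, and of 44 Usp genes, ubiquitin proteases, 6 were higher and none lower. Of 46 Mrpl genes, proteins of the large mitochondrial ribosomal subunit, 8 (17.4%) were lower and none higher, while of 27 Mrps genes, of the small subunit, 1 (3.7%) was lower, although the medians of the stems were -0.76 and -0.81. Of 21 Kif genes, kinesin motors, 4 were lower and none higher.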
